A study of Homo sapiens with 12 samples.

Results

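The CC chemokines are a family of small secreted proteins, and their genes carry symbols made of CCL, a number and, for recent copies, L and a further number. All genes with such a symbol in either deposited table were taken, with no use of their values, which gave 11 of the 16633 genes listed: CCL2, CCL3, CCL3L1, CCL3L3, CCL4, CCL4L1, CCL5, CCL7, CCL20, CCL26 and CCL28. The ConA table (15991 genes) listed all 11, and the PMA table (16101 genes) listed 8 of them. CCL4L1, CCL7 and CCL26 were listed with ConA only, and every gene that a table lists reached about 10 estimated reads in some library (the lowest maximum was 9.99 in both tables).

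PolyA RNA was sequenced from wild-type HT1080, an established human fibrosarcoma cell line, in 12 libraries that form 4 groups of 3. In the PMA experiment, untreated controls were set against cells exposed for 24 h to PMA (phorbol 12-myristate 13-acetate) at 40 nM, which activates protein kinase C. In the ConA experiment, cells exposed for 24 h to ConA (concanavalin A) at 40 µg/mL, a lectin of the jack bean that binds mannose- and glucose-containing glycans at the cell surface, were set against a separate group of untreated controls. The protocol text, shared by all groups, has the cells grown in biotin-depleted medium and moved to a low-serum form of it for the treatment, and it names no carrier given to the controls. All groups come from 1 cell line. The labels do not say whether libraries of a group came from separate cultures, so p-values measure the spread between these libraries, which may be technical. In bulk RNA, fewer cells making a transcript and less of it per cell cannot be told apart.

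Values are normalized counts per gene: estimated counts divided by 1 factor per library, not by gene length. Libraries held an estimated 33617807 to 45566351 reads (median 40948107), so 3 reads correspond to about 2.72 normalized counts in the PMA experiment's controls and 3.05 in those of the ConA experiment. Genes with a mean of at least 10 over the 6 libraries of a table were tested with limma on log2(normalized count + 1). A gene was called when its log2 fold change was at least 1 in size with an adjusted p of at most 0.0001, and in the counts below rose and fell mean called higher and called lower. A gene whose controls average under 10 was tested only because its treated libraries are high, so its call is a description. Log2 fold changes on this scale understate the change of genes with low values. An exact permutation test of 3 against 3 libraries cannot go below p = 0.10, so only the fit across all genes was used.

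CC chemokines are named for a pair of adjacent cysteines near the amino terminus. They bind G protein-coupled receptors of the CCR family on leukocytes and draw those cells along a gradient, and atypical receptors take them up without such signalling. Fibroblasts and tumor cells of mesenchymal origin make several of them once the transcription factors NF-kB, AP-1 or those of the interferon response are active, and PMA is a standard stimulus for NF-kB and AP-1. By role, the 11 genes fall into monocyte attractants that use CCR2 (CCL2, CCL7), inflammatory attractants of T cells and monocytes (CCL3, CCL4, CCL5 and the copies of CCL3 and CCL4), the CCR6 ligand CCL20, the eotaxin CCL26 and the mucosal chemokine CCL28.

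Mesenchymal genes were present, and keratin genes of an epithelial list as well. All 8 mesenchymal genes checked were listed in the PMA table and 7 of 8 in the ConA table, where THY1 was not. Vimentin (VIM) and fibronectin (FN1) led, at 195751 and 167348 in the PMA experiment's controls and 138419 and 268826 in those of ConA. KRT8 averaged 15196 in the PMA experiment's controls and 23741 in those of ConA, and KRT18 13524 and 16073. Lymphocyte genes were also present, in the PMA experiment. Of 6 such genes (PTPRC, CD3E, CD3D, CD2, GZMB and NKG7, grouped after their values were seen), all 6 were in the PMA table and only CD3D was in the ConA table. Their summed level was 760.7, 719.9 and 673.4 in the PMA experiment's controls 1 to 3 and 813.8, 1023 and 1416 in PMA libraries 1 to 3, a ratio of means of 1.51. CD3D alone lay between 21.6 and 31.0 in all ConA-experiment libraries. The B cell gene MS4A1 and the monocyte genes CD14 and TYROBP were listed in neither table. Over the whole fixed list of 15 leukocyte genes, 11 were listed and 10 tested in the PMA table, and the sum ranged from 6032 to 6445 in controls and from 8393 to 9208 with PMA, most of it CD68. One of the 10 was called higher, FCER1G, which myeloid cells express (9.08 to 54.1, log2 2.53, limma adjusted p = 6.81e-05, controls under the minimum). The ConA table listed 6 of them, and the sum ranged from 6214 to 6654 in controls and from 17620 to 20833 with ConA, again mostly CD68 (5925 in controls, 18897 with ConA, log2 1.67, called higher). Lymphocytes are themselves a source of CCL3, CCL4 and CCL5, and the part of these transcripts in the results of the PMA experiment was not tested.

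Promoter sequence was matched by symbol for 6 of the 11 genes (CCL3, CCL3L3, CCL7, CCL20, CCL26 and CCL28; 9 windows of 250 bases before to 50 after a transcription start, RefSeq, build GRCh38.p14). Both strands were searched for the kappaB consensus bound by NF-kB, for the interferon-stimulated response element core GAAANNGAAA and for the AP-1 site TGANTCA. These occur in 11.3%, 3.57% and 7.71% of all 35116 windows of that length. CCL20 held 1 kappaB match, which began 79 bases before its start, and CCL7 held 1 AP-1 match, 51 bases before its start. No other match of these motifs was found in the windows of the 6 genes, which says only that these letters are not there. The stretch before CCL20 is shown because CCL20 is among the genes that rose with both treatments, with the kappaB match in capitals. The stretch is printed from the plus strand, chr2:227813722-227813841. The match itself is on the minus strand, so the capitals show its reverse complement.
CCL20: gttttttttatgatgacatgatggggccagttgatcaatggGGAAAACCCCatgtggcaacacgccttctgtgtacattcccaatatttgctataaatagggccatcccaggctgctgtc

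CCL3 and its copy CCL3L3, which both had a window, are shown over the 100 bases before the start. These bases lie before the transcript, so they do not bear on how reads were split between the copies. The stretches lie on the minus strand, at chr17:36090144-36090243 for CCL3 and chr17:36196759-36196858 for CCL3L3, and capitals mark the 4 bases that differ (96.0% identical).
CCL3: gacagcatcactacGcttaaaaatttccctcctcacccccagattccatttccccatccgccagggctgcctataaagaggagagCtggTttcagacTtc
CCL3L3: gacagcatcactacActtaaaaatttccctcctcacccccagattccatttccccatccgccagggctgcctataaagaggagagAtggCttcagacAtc

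**Figure D1:**
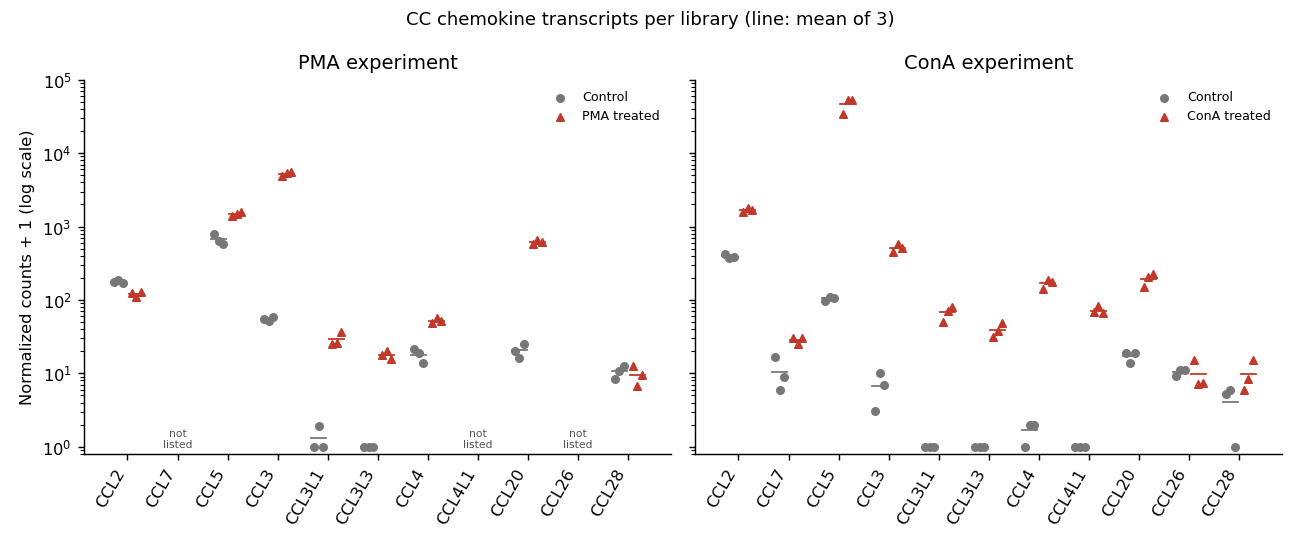
Normalized counts plus 1 (log axis) of the listed CC chemokine genes in each of the 12 libraries, with the PMA and the ConA experiment side by side and 1 point per library. CCL3 and CCL20 separate furthest from their controls with PMA, and CCL5 reaches 34592 to 52639 in the ConA libraries against 96.9 to 108.1 in their controls.

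CCL2, the main attractant of monocytes through CCR2, rose with ConA and was not called with PMA. In the PMA experiment it measured 173.3, 188.7 and 167.9 normalized counts in the controls and 121.9, 110.3 and 128.1 with PMA. Every PMA library lay below every control, but the log2 fold change of -0.55 (SE 0.11, limma adjusted p = 0.000943) did not reach the fold or the p of a call. In the ConA experiment the controls measured 421, 371.2 and 380.7 and the ConA libraries 1587, 1779 and 1680. The groups did not overlap, and CCL2 went from 391 ± 26.4 to 1682 ± 95.9 (SD, n = 3 each), which is 4.30-fold by the means and 2.10 on the log2 scale (SE 0.07, limma adjusted p = 1.16e-11).

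CCL7, a close relative that binds CCR1, CCR2 and CCR3, was listed in the ConA table alone. Its levels were 15.6, 5.00 and 8.01 in controls and 29.04, 24.0 and 29.7 with ConA. The groups did not overlap, but controls averaged under the minimum of 10, and the log2 fold change of 1.56 (SE 0.38) had a limma adjusted p of 0.00226 and was not called. CCL2 and CCL7 share no more than 23 bases in a row between their longest coding transcripts in GENCODE 29.

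CCL5, a ligand of CCR1 and CCR3 that draws T cells, monocytes and eosinophils, had the highest level of any CC chemokine gene in the ConA libraries. Its log2 change with ConA was the largest with a pseudocount of 1, and was passed by CCL4L1 (9.46) and CCL3L1 (9.35) with one of 0.1 (CCL5 8.78). Its control levels of 96.9, 108.1 and 106.2 stood against 34592, 52169 and 52639 with ConA. ConA library 1 was the lowest of the 3, and still far above every control. The means were 103.7 ± 5.97 and 46466 ± 10287 (SD, n = 3 each), a ratio of 448 and a log2 fold change of 8.77 (SE 0.12, limma adjusted p = 2.88e-16).

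With PMA the same gene changed far less. CCL5 measured 796.6, 626.0 and 585.9 in the PMA experiment's controls and 1385, 1489 and 1591 with PMA. All PMA libraries lay above all controls, and the rise was 2.22-fold by the means, 1.16 on the log2 scale (SE 0.10, limma adjusted p = 1.41e-06). This value lies close to the fold a call needs, and without a variance trend the limma adjusted p was 0.000733 and the gene was not called. Within the PMA experiment's controls, and likewise within its PMA libraries, CCL5 and the summed lymphocyte genes came in the same order of libraries. Leaving out PMA library 3, where those genes summed highest, gave 1.11 for CCL5 (adjusted p = 2.06e-05, still called). The other PMA libraries also held more of those genes than any control, and their part in the change of CCL5 was not tested.

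**Figure D2:**
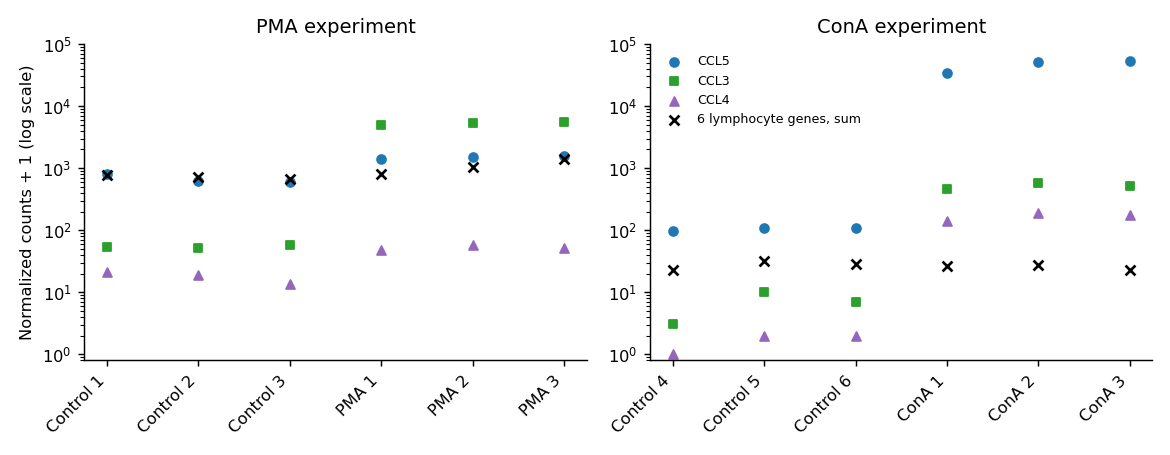
CCL5, CCL3, CCL4 and the sum of 6 lymphocyte genes in each library of both experiments, in normalized counts plus 1 on a log axis, 1 point per library. The lymphocyte sum spans 673.4 to 1416 in the PMA experiment, and in the ConA experiment, where 1 of the 6 genes is listed, it stays at or below 31.0 while CCL5 reaches its highest levels.

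CCL3, a ligand of CCR1 that macrophages also make in quantity, had the largest log2 change of the family with PMA at a pseudocount of 1, though its copy CCL3L1 stood higher with one of 0.1 (7.02 against 6.62). It measured 53.5, 50.1 and 56.9 in controls and 4916, 5390 and 5457 with PMA. The means of 53.5 ± 3.396 and 5254 ± 295 (SD, n = 3 each) differ 98.3-fold, or by 6.59 on the log2 scale (SE 0.07, limma adjusted p = 6.35e-14). In the ConA experiment CCL3 started lower, at 2.08, 9.005 and 6.01 in controls, and reached 455.6, 571.7 and 505.9 with ConA. That rise was 89.7-fold by the means and 6.41 on the log2 scale (SE 0.32, limma adjusted p = 6.52e-10), with control values of only a few reads, under the minimum mean, behind it. The sum of the 6 lymphocyte genes had a ratio of means of 1.51 with PMA. In the ConA experiment CD3D alone was listed, at 0.910 of its control level. The part of lymphocyte transcripts in the change of CCL3 was not tested.

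CCL4, an inflammatory chemokine close to CCL3 in function, separated the treatments. In the PMA experiment it measured 20.3, 17.9 and 12.6 in controls and 47.6, 56.1 and 50.3 with PMA. The groups did not overlap, and the log2 fold change of 1.57 (SE 0.24) missed the call with a limma adjusted p of 0.000149. In the ConA experiment the controls held 2 reads in all (0, 1.00 and 1.00 normalized counts) and the ConA libraries measured 142.2, 187.1 and 172.5. The ratio of read totals was 247 with a 95% counting interval of 68.1 to 2046, and the log2 fold change of 6.72 (SE 0.35, limma adjusted p = 1e-09) passed the call.

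The copies CCL3L1, CCL3L3 and CCL4L1 encode near-identical proteins and share reads with CCL3 and CCL4. The longest coding transcripts of CCL3 and CCL3L1 are 96.1% identical over 778 aligned bases, with at most 83 bases in a row in common, and CCL4 and the related copy CCL4L2 are 94.7% identical over 397 bases. How the authors' counting split reads between them is an estimate, so each copy's own level is uncertain. These genes and, in the ConA table, CCL3, CCL4 and CCL7 passed the minimum mean only through their treated libraries.

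CCL3L1 measured 0, 0.894 and 0 in the PMA experiment's controls (1 read in all) and 23.9, 25.2 and 35.4 with PMA. The ratio of read totals was 92.7, with a 95% counting interval of 16.2 to 3710, and the log2 fold change was 4.54 (SE 0.52, limma adjusted p = 1.51e-05). The call was lost without PMA library 1 (4.64, adjusted p = 0.000205) or PMA library 2 (4.60, adjusted p = 0.000293), and without PMA library 3 its mean fell under the minimum for a test. With ConA it was 0 in every control and 49.8, 70.4 and 79.7 in the treated libraries, at least 21.9-fold higher against a floor of 3 reads per library. CCL3L3 was at 0 in all controls of both experiments. It reached 16.8, 19.4 and 14.9 with PMA (at least 6.27-fold higher, not tested because its mean was 8.52) and 30.4, 37.3 and 47.0 with ConA (at least 12.5-fold higher). CCL4L1 was at 0 in the ConA experiment's controls and at 67.1, 80.5 and 64.7 with ConA, at least 23.2-fold higher. With ConA the log2 fold changes were 6.05 for CCL3L1, 5.27 for CCL3L3 and 6.16 for CCL4L1, and all were called.

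The copies took different portions of the signal in the PMA and the ConA libraries. CCL3L1 and CCL3L3 together held 0.820%, 0.822% and 0.913% of the counts of the 3 CCL3 genes in the PMA libraries. In the ConA libraries they held 14.95%, 15.9% and 20.0%. No ConA library came near the PMA range, although all cells are of 1 line. CCL4L1 held 32.1%, 30.1% and 27.3% of the counts of CCL4 and CCL4L1 in the ConA libraries, and was not listed in the PMA table. Summed over the CCL3 copies, levels went from a mean of 53.8 to 5300 (4957 to 5508) with PMA and from 5.70 to 616 (535.7 to 679.4) with ConA. Whether the copies or the read assignment differ between the tables was not tested.

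**Figure D3:**
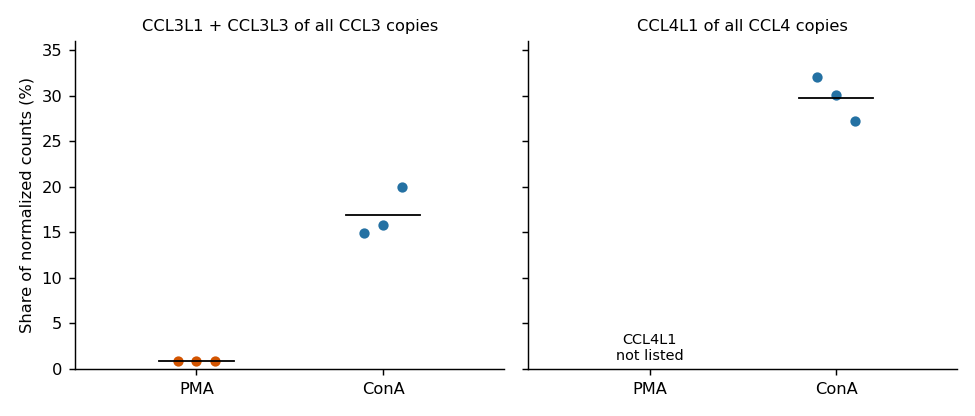
Percent of the normalized counts of CCL3 plus its copies that fell on CCL3L1 and CCL3L3, and of CCL4 plus CCL4L1 that fell on CCL4L1, in each treated library (points) with the group mean (line). The CCL3 copies hold 0.820% to 0.913% with PMA and 14.95% to 20.0% with ConA, and CCL4L1, which the PMA table does not list, holds 27.3% to 32.1% with ConA.

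CCL20, the CCR6 ligand that draws dendritic cells and Th17 lymphocytes, rose with both agents. In the PMA experiment it measured 19.4, 15.2 and 24.4 in controls and 577, 650.2 and 619 with PMA. The rise was 31.3-fold by the means and 4.92 on the log2 scale (SE 0.16, limma adjusted p = 4.01e-10). Its ConA values were 17.7, 13.0 and 18.03 in controls and 150.2, 202.8 and 223.8 with ConA. That rise was 11.8-fold and 3.48 on the log2 scale (SE 0.20, limma adjusted p = 3.52e-09), and in both experiments all treated libraries lay above all controls. Its promoter stretch above holds the only kappaB match among the 9 windows, where 11.3% of all 35116 windows hold such a match. CCL2, CCL4 and CCL5 had no window, and a link of the match to the rise was not tested.

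CCL26, an eosinophil attractant through CCR3, and CCL28, which binds CCR10 and CCR3, stayed near the lowest measurable level. CCL26 was listed with ConA alone, at 8.34, 10.0 and 10.0 in controls and 14.0, 6.27 and 6.29 with ConA, and the groups overlapped. CCL28 measured 7.38, 9.84 and 11.7 in the PMA experiment's controls and 11.6, 5.70 and 8.38 with PMA, again with overlap. In the ConA experiment it measured 4.17, 5.00 and 0 in controls and 5.01, 7.32 and 14.4 with ConA. These means were under the minimum for a test, and a difference was not detectable at this depth.

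Counted over the family, 4 of the 6 genes tested with PMA were called higher (CCL3, CCL3L1, CCL5 and CCL20) and 0 lower, where 4.03% of the 15153 genes tested were called higher and 4.61% lower. Of the 6, CCL2 had every PMA library below every control. With ConA 8 of the 9 tested were called higher (CCL7 was not) and 0 lower, beside 5.83% higher and 2.88% lower of 15139 genes. Since genes that passed the minimum only through treated libraries are among them, these counts are a description of the list. Of the genes listed, tested or not, 6 of 8 with PMA and 10 of 11 with ConA had every treated library above every control. Over all genes tested, a narrower set, the shares were 34.8% and 34.9%. For CCL28 with ConA the pattern rests on 5.007 against 5.003. CCL3L3 with PMA, and CCL3L1, CCL3L3 and CCL4L1 with ConA, were at 0 in every control and so listed only through treated libraries. The median log2 fold change of the members tested was 3.06 with PMA and 6.05 with ConA, beside 0.00288 and -0.00222 over all genes tested. With the genes at 0 in every control set to their bound, the median with ConA was 4.45.

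The log2 change with ConA was subtracted from that with PMA, as a contrast of contrasts over all 12 libraries. Genes listed in both tables with a mean of at least 10 over the 12 libraries were tested. CCL3L3, with a mean of 8.52 in the PMA experiment and 19.1 in the ConA experiment, was among them through its ConA libraries. Of 7 CC chemokine genes tested, 0 were called higher and 3 lower, where 3.67% of 15030 genes were called higher and 6.89% lower. The difference was -7.61 for CCL5 (SE 0.18, 95% interval -7.99 to -7.22, limma adjusted p = 5.66e-16). It was -5.15 for CCL4 (SE 0.42, -6.05 to -4.26, limma adjusted p = 1.33e-08) and -2.66 for CCL2 (SE 0.12, -2.91 to -2.40, limma adjusted p = 4.58e-12). All 3 thus changed more in the upward direction with ConA. The value for CCL4 rests on ConA controls with 2 reads in all, and is a description.

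The other members did not pass the call of a difference. CCL20 had a larger log2 change with PMA by 1.44 (95% interval 0.88 to 2.01, limma adjusted p = 0.000163). The difference for CCL3 was 0.18 with an interval of -0.61 to 0.98 (limma adjusted p = 0.691), which does not show that the agents act alike on it, and its sign turned with the copies summed (-0.08). For CCL3L1 it was -1.51 (-2.85 to -0.18, limma adjusted p = 0.0476) and for CCL3L3 -1.11 (-2.55 to 0.34, limma adjusted p = 0.172), both with controls at or near 0.

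**Figure D4:**
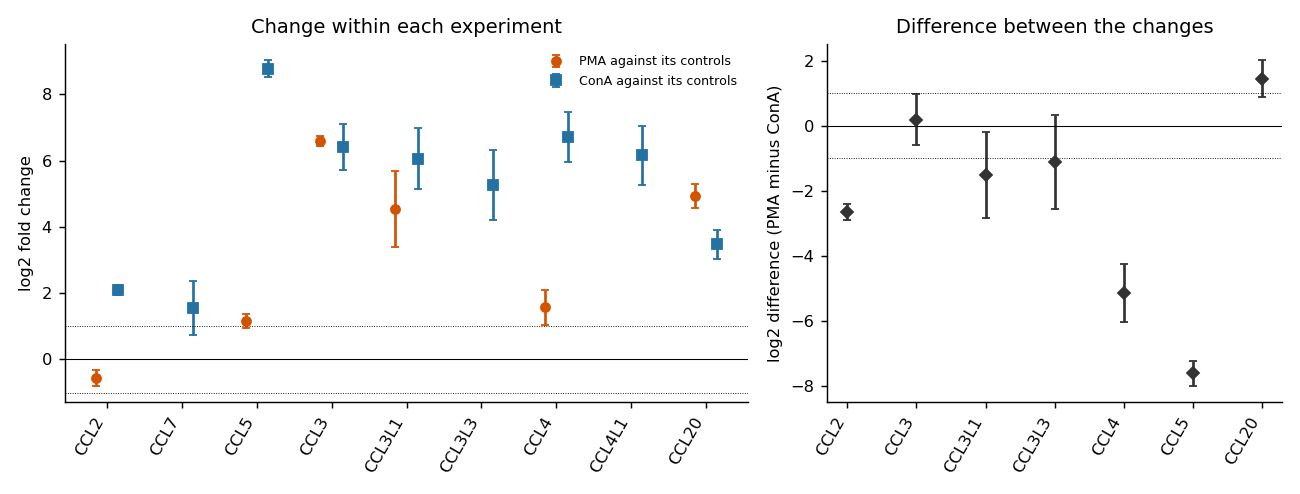
Log2 fold changes of the tested CC chemokine genes with PMA and with ConA, and the former minus the latter, each with its 95% interval from limma (n = 3 libraries per group). CCL5, CCL4 and CCL2 lie furthest below 0 in the difference, at -7.61, -5.15 and -2.66, while the interval of CCL3 spans 0.

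Levels of different genes were compared per kilobase of the longest coding transcript, leaving out the copies. CCL7 and CCL26, which the PMA table does not list, were counted as 0 in the PMA experiment. The leading chemokine with each agent was another one than in its controls. In the PMA experiment's controls CCL5 held 57.9% ± 3.94 of the summed level per kilobase and CCL2 28.4% ± 3.10, and with PMA CCL3 held 76.7% ± 0.148 and CCL5 12.4% ± 0.323 (SD, n = 3). In the ConA experiment's controls CCL2 held 80.2% ± 1.27, and with ConA CCL5 held 90.7% ± 1.496 and CCL2 6.22% ± 1.14. Shares are taken within a library, so they do not depend on the factor of each table. The control groups of the experiments thus differed too, with CCL5 ahead in one and CCL2 in the other. CCL20 held 8.34% ± 0.271 with PMA and 0.614% with ConA.

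The summed level per kilobase went from 775.7 to 934.1 in controls to between 8242 and 9150 with PMA. With ConA it went from 630.3 to 695.4 up to between 28463 and 41989, the lowest again in ConA library 1. In the PMA libraries CCL3 stood first at 6754 ± 379 per kilobase, and in the ConA libraries CCL5 at 34041 ± 7536, with CCL2 next at 2270 ± 129 (SD, n = 3). The tables were normalized separately, so these levels were not tested against each other.

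**Figure D5:**
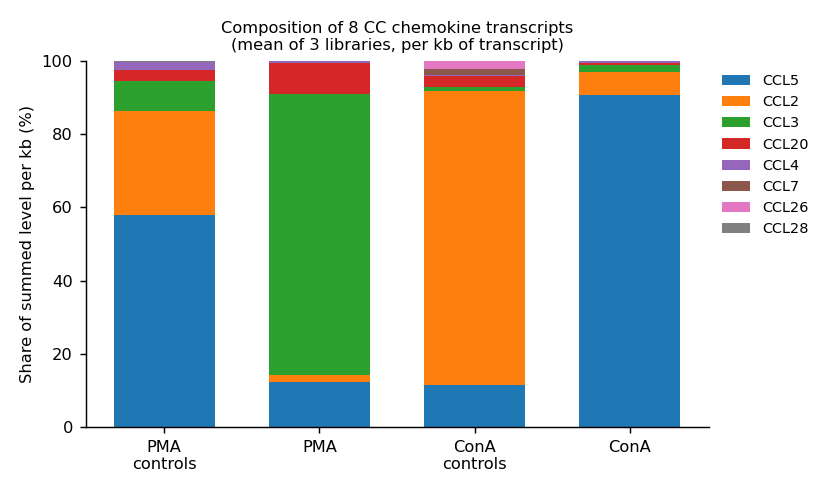
Share of each CC chemokine gene in the summed level per kilobase of transcript, without the near-identical copies. CCL7 and CCL26, which the PMA table does not list, count as 0 in the bars of the PMA experiment. Each of the 4 bars is a group, stacked to 100% from the mean shares of its 3 libraries. CCL5 leads in the PMA experiment's controls (57.9% on average), CCL3 with PMA (76.7%), CCL2 in the ConA experiment's controls (80.2%) and CCL5 with ConA (90.7%).

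Receptors for these ligands were at low levels. Of 10 CC receptor genes, the PMA table listed 9 and 4 were tested, of which 1 rose, while the ConA table listed 4 and 3 were tested, of which 2 rose, and none fell in either. The median log2 fold changes were 0.80 and 1.68, beside 0.00288 and -0.00222 over all genes tested. Of all genes tested, 4.03% were called higher with PMA and 5.83% with ConA. CCR10, the CCL28 receptor, went from 85.2 ± 1.39 to 183.5 ± 26.0 with PMA (log2 1.09, limma adjusted p = 1.71e-05) and from 49.1 ± 1.74 to 159.7 ± 12.1 with ConA (1.68, adjusted p = 1.42e-07). CCR1, a receptor of CCL3, CCL5 and CCL7, rose from 44.8 ± 9.95 to 320.7 ± 34.4 with ConA (2.83, adjusted p = 2.26e-09). With PMA its log2 fold change of 0.99 (adjusted p = 6.3e-05) fell just under the fold of a call.

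Atypical receptors, which remove or present chemokines, changed in both directions. ACKR3, which binds CXC chemokines, fell from 184.7 ± 13.6 to 11.6 ± 3.45 with PMA (log2 -3.92, limma adjusted p = 4.84e-08) and from 78.7 ± 10.8 to 14.2 ± 3.76 with ConA (-2.41, adjusted p = 1.09e-06). ACKR4, a scavenger of CC chemokines, rose from 5.76 ± 1.57 to 56.4 ± 6.07 with ConA (3.11, adjusted p = 5.53e-07) with controls under the minimum, and was not tested with PMA. CCRL2 rose from 70.1 ± 6.53 to 254 ± 4.16 with ConA (1.85, adjusted p = 1.25e-08), and with PMA it measured 78.8 and 79.6 (adjusted p = 0.982). Of the 6 genes of the list, 3 were tested with PMA (0 higher, 1 lower) and 4 with ConA (2 higher, 1 lower). Among all genes tested, 4.03% were called higher and 4.61% lower with PMA, and 5.83% and 2.88% with ConA.

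NF-kB subunits and their inhibitors, many of them targets of NF-kB as well, were followed next. Of 15 such genes, all tested, 8 rose with PMA (median over the list 1.10) and 7 with ConA (median 0.64), and none was called lower. Over all genes tested, 4.03% were called higher with PMA and 5.83% with ConA. BCL3 (-0.59) and IKBKB (-0.26) had every PMA library below every control without a call. So did IKBKB (-0.08) and IKBKG (-0.18) in the ConA libraries against their own controls. TNFAIP3, an inhibitor of the pathway, changed most. It went from 528.3 ± 21.1 to 4014 ± 11.3 with PMA (2.92, limma adjusted p = 1.76e-12) and from 457.6 ± 45.7 to 7829 ± 1207 with ConA (4.09, adjusted p = 1.85e-13). The others called with both were NFKB1 (1.28 with PMA, 1.09 with ConA), NFKB2 (1.33, 1.64), RELB (1.11, 1.46), NFKBIA (1.55, 2.26) and NFKBIE (1.47, 1.49). NFKBIB (1.10) and NFKBIZ (1.29) were called with PMA, and IKBKE (1.25) with ConA.

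Interferon regulators were called mostly with ConA. Of 12 genes tested in each table, 1 rose with PMA (IFNGR2, a subunit of the interferon gamma receptor, 1.10; median 0.07) and 7 with ConA (median 1.07), and none was called lower. The shares called higher over all genes tested were 4.03% with PMA and 5.83% with ConA. STAT2 (1.98), IRF1 (1.22), IRF2 (1.02), IRF5 (1.12), IFNAR2 (1.15) and the type III interferon gene IFNL1 (4.11, controls under the minimum) were among those called with ConA.

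Chemokines of other classes, which bind other receptors, were also measured. Of 11 such genes in either table, 7 were tested with PMA, of which 3 rose, and 6 with ConA, of which 6 rose, and none was called lower. PPBP with PMA and CXCL9 with ConA had controls under the minimum, and CXCL16 with PMA (-0.82) lay below its controls without a call. The neutrophil attractants CXCL8 (721.2 to 40375, log2 5.80), CXCL3 (5.63) and PPBP (4.66) rose with PMA. With ConA the largest rises were those of the T cell attractants CXCL10 (19.2 ± 7.98 to 20740 ± 3666, 10.06), CXCL11 (9.25) and CXCL9 (5.08), followed by CXCL8 (4.08), CXCL16 (2.85) and CXCL3 (1.45). CXCL11 measured 10.2 and 12.8 in the PMA experiment (0.05, limma adjusted p = 0.941). The medians were 3.26 and 4.58, and over all genes tested 4.03% were called higher with PMA and 5.83% with ConA.

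Proteases that trim CC chemokines were followed as the last list. Of 9 such genes, 8 were tested with PMA, of which 5 rose (MMP1 5.65, MMP9 4.77, MMP3 3.95, MMP8 2.88 and CTSS 2.20) and MMP2 fell by 1.28 on the log2 scale. All 9 were tested with ConA, and 6 rose (CTSS 6.10, MMP12 5.36, DPP4 2.96, MMP3 2.76, MMP9 2.25 and MMP1 1.78). MMP8 (2.15) was not called. MMP2 (-0.71) and MMP14 (-0.15) had every ConA library below every control, without a call. The sum over the list, most of it MMP14, ranged from 186154 to 194748 in these controls and from 166196 to 178707 with ConA. Among all genes tested, 4.03% were called higher and 4.61% lower with PMA, and 5.83% and 2.88% with ConA. Cathepsin S (CTSS) went from 68.5 ± 8.89 to 4799 ± 952 with ConA (limma adjusted p = 3.27e-14). The controls of MMP8 with PMA and of MMP12 and DPP4 with ConA were under the minimum. DPP4, the peptidase that cuts the first residues from CCL5, went from 5.71 to 49.1 with ConA (adjusted p = 3.92e-06) and with PMA its log2 fold change was 0.56 (adjusted p = 0.0207).

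As a description of shared patterns, each chemokine called in at least 1 table and tested in both was correlated with 14661 genes over the 12 libraries, after the mean of the controls of its own table was subtracted. These libraries form 4 groups, so a correlation mostly reflects the pair of treatment changes. CCL5 was nearest to HLA-B (Pearson r = 0.999), HLA-F (0.999) and GCA (0.998), and CCL4 to ISG20 (0.996), HLA-E (0.996) and ERP44 (0.995). CCL2 was nearest to GOLM1 (0.998), APOL1 (0.998) and IFIT2 (0.997). CCL20 was nearest to MMP3 (0.998), HDAC9 (0.997) and CXCL8 (0.997), CCL3 to FTH1 (0.996), MSC (0.996) and AIFM2 (0.995), and CCL3L1 to CFLAR (0.996), TNFAIP3 (0.995) and BTN2A1 (0.995). Among the members, CCL4 and CCL5 were closest to each other (r = 0.991), CCL3 and CCL20 reached 0.964, and CCL2 and CCL20 had 0.151.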

How the data were processed

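Counts were estimated and normalized by the authors, who deposited 1 table per experiment. Each signal value in the deposited tables is a normalized count of 1 gene symbol, made by the authors. The submitters' processing notes name Partek, STAR, Bowtie2 and DESeq2 and the builds hg19 and mm10, with no role or version. Because the reference sequences used here are of another build, no gene coordinates are given beyond the RefSeq promoter stretches of GRCh38.p14.

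A factor per library was estimated as the one that makes most values from 5 to 60 whole (tolerance 0.05), which held for 81.8% to 84.2% of them. Whole reads were thus not recovered for nearly all genes, and no count test was the main result. Estimated reads (33617807 to 45566351 per library) give the depth. Intervals and floors (3 reads per library) cover counting error only.

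Treated libraries were set against the controls of their table in R 4.3.3 with limma 3.58.1 (log2(value + 1), mean of at least 10, variance trend, Benjamini-Hochberg adjustment over all genes tested). Tables were normalized separately, so experiments were compared only as a difference of within-table changes. The procedure was checked on simulated data. Transcript lengths and identities come from GENCODE 29. Python 3.11.15, pandas 2.3.3, Biopython 1.88 and matplotlib 3.10.9 were used for tables and figures.

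The family rule, the lists and the tests were chosen with earlier results of these data known. Genes named are all CC chemokines, list members called in a table (otherwise the 3 with the largest change), and the 3 genes with the pattern nearest to each called chemokine. Genes shown beside these were picked after their values were seen. Alternatives covered the pseudocount, the minimum mean, quantile normalization and median centring, the variance trend, voom on estimated reads, a joint fit, the thresholds, the replicate number as a block and leaving out each library. Some members of the lists are not reported here.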

Additional observations from a re-analysis of the deposited data

Results flagged for a closer look

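For 3 CC chemokine genes, PMA and ConA gave different changes by the test of the difference itself. The difference in log2 fold change, PMA minus ConA, was -2.66 for CCL2, -5.15 for CCL4 and -7.61 for CCL5 (limma, 3 libraries in each of the 4 groups). CCL2 rose with ConA, and its log2 fold change of -0.55 with PMA was not called. CCL4 and CCL5 lay above the controls with both agents, and the value for CCL4 rests on ConA controls with 2 reads in all, so that it is a description.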

How the results depend on the processing

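Over 25 results and 423 alternative values, 404 kept their direction and side of the threshold or, as counts of genes, stayed close to the first count (3 to 5 with PMA, 7 to 9 with ConA). The number of genes called with PMA was 2 instead of 4 without a variance trend (CCL3L1 at 4.54 and CCL5 at 1.16 lost their calls), and 3 to 5 with each library left out. It was 3 without PMA library 1, 2 or 3, and 5 without PMA control 3, where CCL3L3 was called as well. The number with ConA was 5 instead of 8 at a mean of at least 50, which leaves fewer genes tested, and 8 to 8 with each library left out. The number that differed between treatments was 5 instead of 3 with a pseudocount of 10 or an adjusted p of at most 0.05, and 3 to 4 with each library left out. CCL3L1 with PMA was 7.02 and not called with a pseudocount of 0.1, and 4.38 to 4.84 with each library left out. CCL4 with PMA was called with a pseudocount of 10 (1.20) and with quantile normalization (1.88). The CCL3 difference turned negative with a pseudocount of 0.1 (-0.07), with the copies summed (-0.08, an alternative chosen after seeing the data) and without ConA control 5 (-0.18). It was 1.30 and called with a pseudocount of 10, and ranged from -0.18 to 0.66 with each library left out. The CCL20 difference was called with a pseudocount of 10 (1.48), with quantile normalization (1.83), and without PMA control 3 (1.60) or ConA control 5 (1.59), and ranged from 1.28 to 1.60. Except where stated, the cause was not tested.

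With the replicate number as a block, 4 genes were called with PMA, as without it. Same-numbered control and PMA libraries had correlations of -0.0636, 0.0964 and 0.0964 between their deviations from the group means, so the numbers were not taken to pair them, and control 1 correlated best with PMA library 2. No paired analysis was possible for ConA because its groups share no replicate numbers. Depth limits CCL26 and CCL28, and the CCL3, CCL4 and copy genes in ConA controls rest on a few reads. Without a minimum mean, CCL3L3 was called with PMA (4.17, limma adjusted p = 4.97e-05), and CCL26 and CCL28 were not called.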
